A study of Homo sapiens with 6 samples.

Results

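Polyamines are small, positively charged molecules that bind RNA and DNA and are needed for growth. Cells make putrescine from ornithine, extend it to spermidine and then spermine with aminopropyl groups from decarboxylated S-adenosylmethionine, and break them down through acetylation and oxidation. The pathway is held in balance by antizyme, a protein that directs ornithine decarboxylase to the proteasome, and by antizyme inhibitor, which takes antizyme away from it. The 10 genes described here cover these steps: ODC1, AMD1, SRM and SMS for synthesis, OAZ1 and AZIN1 for control by antizyme, and SAT1, PAOX, SMOX and AOC1 for breakdown. They were taken by name from the platform annotation, as every probe set carrying one of these symbols alone, which gave 21 of the 54613 probe sets on the array that are not Affymetrix controls. All 10 genes were present, of 19775 with a probe set of their own. The genes were chosen by name with results of the same comparison in view, that is with the difference in signal between MFAP5 and control arrays, in which AOC1 is among the largest falls. The values of the 10 genes are therefore a description and support no test.

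The cells were OVCA432, an established line from high grade serous ovarian cancer. They had been grown in RPMI1640 with 10% fetal bovine serum, then held without serum for 24 h. Of the 6 samples, 3 then received recombinant human MFAP5, a secreted glycoprotein of extracellular microfibrils, at 200 ng/mL, and 3 received solvent alone, all in medium without serum. The cells were harvested 48 h after treatment, as samples the design text describes as independent, and their RNA was measured on Affymetrix U133 Plus 2.0 arrays. All samples come from 1 cell line and 1 time after treatment, and the protein was added from outside.

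Array values were MAS5 signals, a linear brightness per probe set in which each array had been scaled to the same trimmed mean of 500.07. Between 27209 and 36073 probe sets an array lay above the brightest of 27 probe sets for Bacillus genes, which have no counterpart in human cells (signal 26.4 to 55.9). RNA integrity was read from control probe sets at both ends of a transcript. The log2 ratio, 3' end over 5' end, was -0.20 to -0.06 for GAPDH and 0.21 to 0.34 for ACTB over the 6 arrays, with exact permutation p = 0.5 and 0.6 between the groups (two-sided; 3 against 3 arrays cannot go below 0.1). All 10 epithelial and ovarian carcinoma markers looked at were above the Bacillus controls on every array. Their summed signal was 83227 to 94773 in control and 97177 to 106087 in MFAP5 arrays, but they did not move alike. With MFAP5, WFDC2 was 1.70-fold lower, MUC16 3.63-fold and MSLN 2.33-fold higher, and KRT19 hardly differed (log2 difference -0.0008). Of 13 fibroblast, leukocyte and endothelial markers on the array, 2 (COL1A1 and COL1A2) were above the Bacillus controls on every array, and COL3A1 and DCN on none. Summed signals of the markers in control and MFAP5 arrays were 262 to 305 and 265 to 371 for 6 fibroblast markers, 22.2 to 128 and 70.8 to 135 for 3 leukocyte markers, and 137 to 208 and 189 to 248 for 4 endothelial markers. The part of these markers in the values below was not tested.

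With MFAP5, mRNA of ODC1 and SRM, enzymes of polyamine synthesis, was lower, mRNA of AOC1, which oxidises putrescine, was lower still, and mRNA of SAT1, which acetylates spermidine and spermine, was slightly higher. The other 6 genes were not called, although 1 of the 2 AMD1 probe sets was lower. "Called" means an adjusted p below 0.05 in a limma fit over the 27307 probe sets that were at least as bright as the median probe set. Each gene was represented by its brightest probe set, and all 10 passed this filter, so 3 were called lower, 1 higher and 6 neither. Of all probe sets tested 25.2% were called, 13.5% higher and 11.8% lower. Over all 12216 genes tested the same way, 29.9% were called, 14.6% higher and 15.3% lower. Among the 10, MFAP5 and control signals did not overlap for 5, against 45.9% of all genes. The median absolute log2 difference was 0.21 for the 10 genes and 0.23 for all genes, and the median signed difference was -0.16 and -0.01. Of the called probe sets on the whole array, 53.4% were higher with MFAP5 on the deposited scale and 27.8% when arrays were centred on their medians, which moved the median of all probe sets tested from 0.02 to -0.12.

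**Figure D1:**
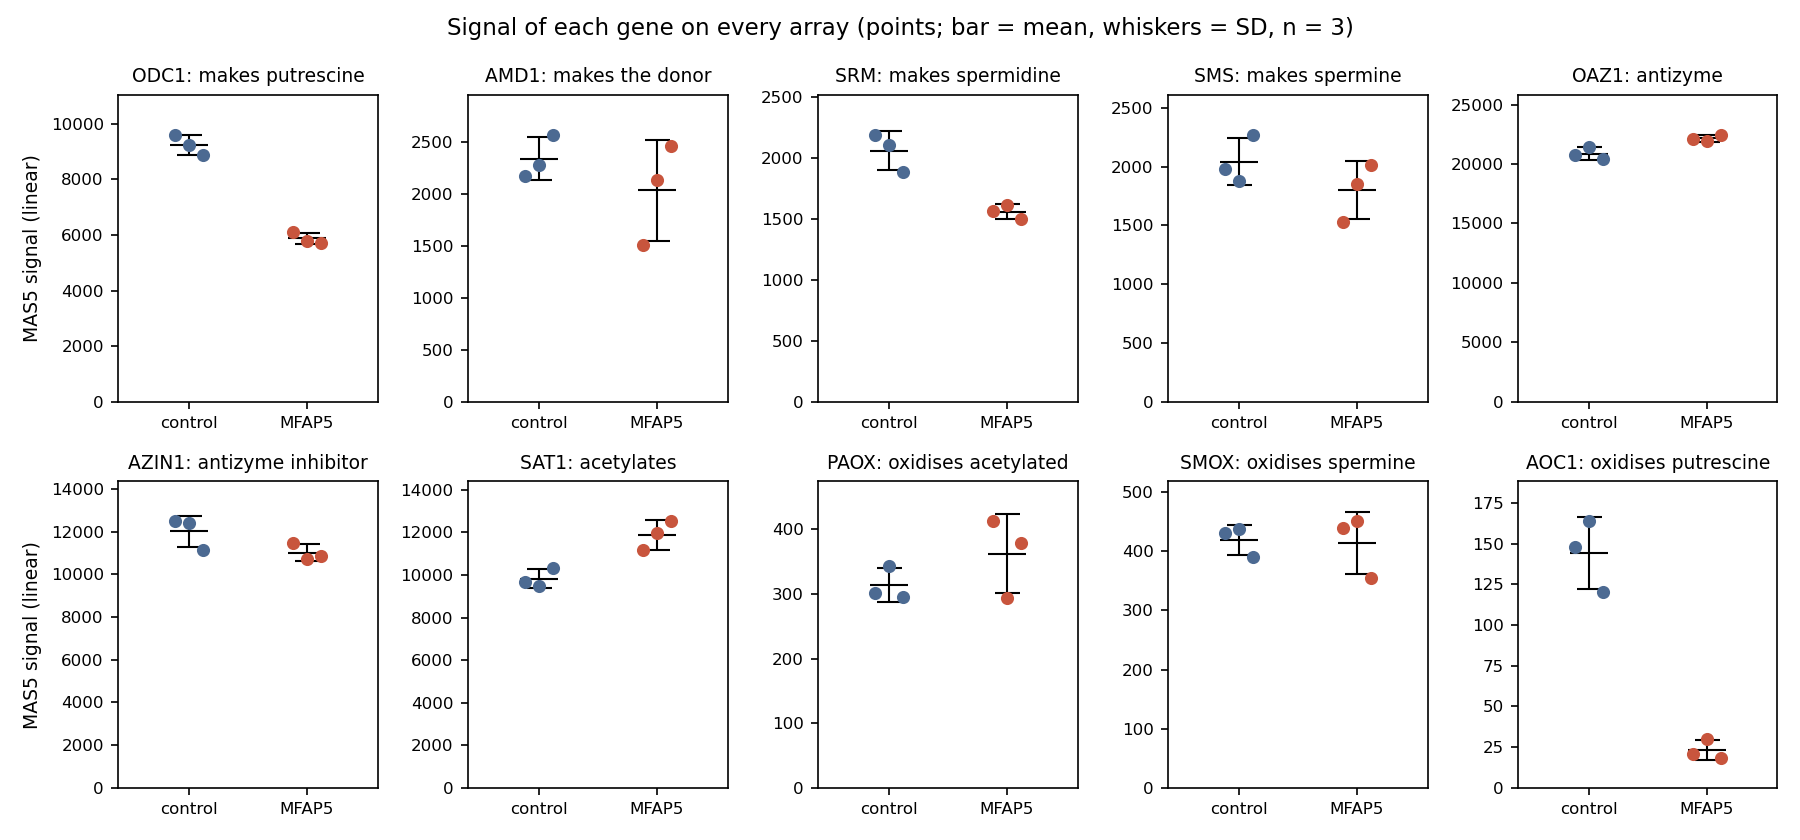
MAS5 signal (linear, axis from 0) of each of the 10 genes on the 3 control and 3 MFAP5 arrays, by the brightest probe set; points are arrays, the bar is the mean and the whiskers the SD. The groups are apart for ODC1, SRM, SAT1, AOC1 and, by a small margin, OAZ1, and overlap for the other 5 genes.

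The stretches just upstream of the start site are shown for the 3 genes called lower (AOC1, ODC1 and SRM), the one called higher (SAT1) and AMD1, whose probe sets differed. They come from RefSeq (GRCh38.p14), which gave 10 promoter windows of 300 bases (250 before the start and 50 after) for 7 of the 10 genes. Each is the 60 bases before the start on the gene's own strand, 5′ to 3′, with the TATA box core TATAA in capitals.
AOC1, chr7:150852457-150852516, plus strand: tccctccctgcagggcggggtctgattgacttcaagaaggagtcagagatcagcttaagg
ODC1, chr2:10448328-10448387, minus strand: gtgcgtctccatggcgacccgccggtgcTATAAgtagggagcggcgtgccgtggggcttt
SRM, chr1:11060019-11060078, minus strand: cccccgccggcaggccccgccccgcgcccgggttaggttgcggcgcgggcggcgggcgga
AMD1, chr6:110874725-110874784, plus strand: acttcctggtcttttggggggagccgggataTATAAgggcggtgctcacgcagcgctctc
SAT1, chrX:23783113-23783172, plus strand: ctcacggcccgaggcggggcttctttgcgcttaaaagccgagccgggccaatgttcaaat
TATAA, searched on both strands, lay 32 bases before the start in ODC1 and 29 in AMD1. The other 3 stretches did not hold these letters. Of all 35116 windows of 300 bases, 20.4% hold TATAA somewhere, which is a longer search than the 60 bases shown. By gene the share was 24.2% of 27305. In its 300-base window OAZ1 held TATAA as well, at base 7 after the start.

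The E-box CACGTG, the sequence bound by MYC with its partner MAX, was searched for as well because ODC1 is a textbook target of MYC. It reads the same on both strands. It was found in the SRM window, 199 bases before the start, and at 2 places in the window of a second, downstream ODC1 start, 29 bases before it and at base 6 after it. These are shown with 10 bases on either side and the E-box in capitals.
SRM, chr1:11060202-11060227, minus strand: ggccgggcccCACGTGgcccctggag
ODC1 before the second start, chr2:10448026-10448051, minus strand: gggccccgggCACGTGtgcggcgcgc
ODC1 after the second start, chr2:10447992-10448017, minus strand: cctgcggagaCACGTGgtcgccgagc
Of all windows, 7.26% hold a CACGTG, and of all 27305 genes with a window, 8.77% do. The windows of AOC1, SAT1, SMS, OAZ1 and AMD1 did not hold these letters, nor did that of the first ODC1 start. SMOX, PAOX and AZIN1 had no window and were not searched. Such a match is a description of the letters and shows no binding.

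ODC1 encodes ornithine decarboxylase, which makes putrescine and is the first committed enzyme of the pathway. Its signal, from a single probe set, was 9597, 9220 and 8871 on the control arrays and 6115, 5787 and 5726 on the MFAP5 arrays. Every MFAP5 value lay well below every control value, and the arrays within each group differed little. The means were 9229 ± 363 and 5876 ± 209 (SD, n = 3 each), a 1.57-fold lower signal with MFAP5 and a log2 difference of -0.65 ± 0.06 (SE). In RNA from a whole culture, fewer cells that make a transcript and less of it in each cell cannot be told apart.

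SRM, spermidine synthase, adds an aminopropyl group to putrescine. Its only probe set gave 2188, 2109 and 1884 in control and 1564, 1617 and 1499 in MFAP5 samples. The groups did not overlap, and control replicate 3 was the control nearest to the MFAP5 arrays. SRM was 1.32-fold lower with MFAP5, at a log2 difference of -0.40 ± 0.08 (SE). Over 16 alternative settings the log2 difference was -0.79 to -0.62 for ODC1 and -0.54 to -0.35 for SRM.

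AMD1, S-adenosylmethionine decarboxylase, supplies the aminopropyl donor for both synthases. The probe set that is brighter by a small margin gave 2177, 2279 and 2570 in control and 1512, 2132 and 2468 in MFAP5 samples. These values overlapped, and MFAP5 replicate 1 was far below the other MFAP5 arrays. The log2 difference was -0.23, with a 95% interval of -0.57 to 0.11, and it was -0.03 without MFAP5 replicate 1. The second AMD1 probe set gave 2452, 2448 and 2386 in control and 1807, 1861 and 1842 in MFAP5 samples. There the groups were far apart and MFAP5 replicate 1 did not stand out. Its log2 difference was -0.40 ± 0.06 (SE), called lower, and the mean of both probe sets was also called (-0.315). The choice of probe set thus decided whether AMD1 counted among the genes called.

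SMS, spermine synthase, makes spermine from spermidine. Its signal was 1981, 1883 and 2271 in control and 1532, 1857 and 2015 in MFAP5 samples. The values overlapped, with MFAP5 replicate 1 again the lowest. The log2 difference was -0.19 (95% interval -0.43 to 0.06), and -0.08 without MFAP5 replicate 1. Of the 4 synthesis enzymes, 2 were thus called lower by their brightest probe set, and the differences of the other 2 were below 0 but within their error.

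**Figure D2:**
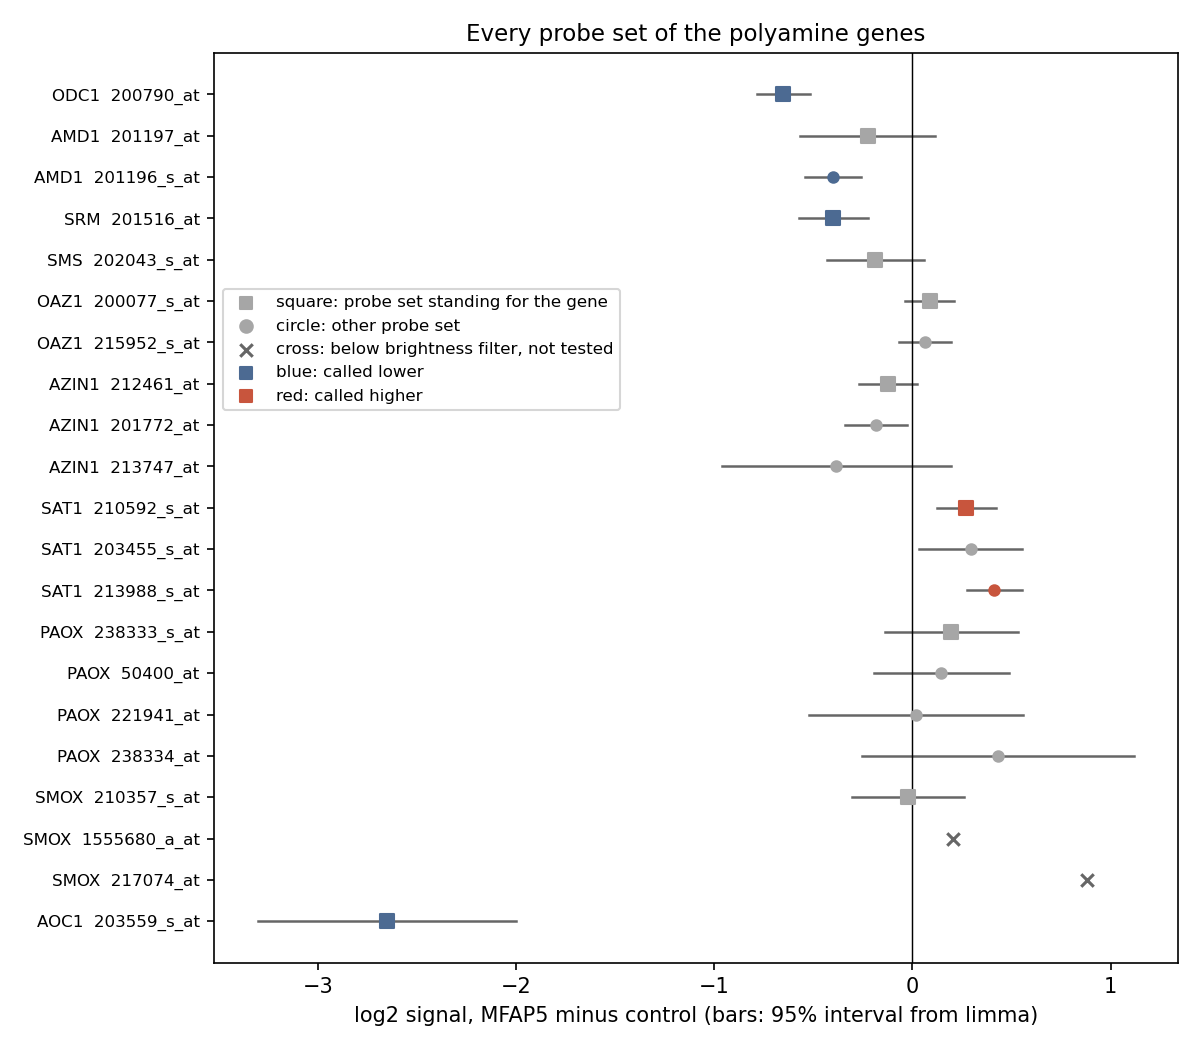
Log2 difference in MAS5 signal, MFAP5 minus control, for all 21 probe sets of the 10 genes, with 95% intervals from limma; squares stand for the gene, circles are other probe sets and crosses were below the brightness filter. AOC1 lies far to the left at -2.65, the synthesis genes lie left of 0, and all SAT1 probe sets lie right of it.

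OAZ1 encodes antizyme, whose full-length form is made only when the ribosome shifts frame, which polyamines promote, so its mRNA level is not a measure of antizyme protein. The signal of its brightest probe set was 20745, 21459 and 20448 in control and 22102, 21935 and 22448 in MFAP5 samples. The groups did not overlap, but the gap was small. The log2 difference was 0.09 (95% interval -0.04 to 0.21) and the gene was not called. It turned to -0.01 with quantile normalization and to -0.05 with arrays centred on their medians. The second OAZ1 probe set gave 0.06 and was not called either.

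AZIN1, antizyme inhibitor, resembles ornithine decarboxylase but has no activity as an enzyme. Its brightest probe set gave 12483, 12390 and 11154 in control and 11459, 10696 and 10853 in MFAP5 samples. The groups overlapped only because control replicate 3 lay among the MFAP5 arrays. The log2 difference was -0.12 (95% interval -0.27 to 0.02), and it was -0.18 and called without control replicate 3. The 2 other AZIN1 probe sets had differences of -0.18 and -0.39, and neither was called. In the first of these the groups did not overlap, at 6053 to 6390 in control and 5047 to 5867 with MFAP5.

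SAT1, spermidine/spermine acetyltransferase, starts the return of spermine and spermidine to putrescine and allows their export. Its brightest probe set gave 9689, 9461 and 10347 in control and 11149, 11969 and 12522 in MFAP5 samples. All MFAP5 values were above all control values, though MFAP5 replicate 1 was close to control replicate 3. SAT1 was 1.21-fold higher with MFAP5, at a log2 difference of 0.27 ± 0.07 (SE). A second probe set, called as well, gave 3826, 3998 and 3692 in control and 5073, 5279 and 4961 in MFAP5 samples, a 1.33-fold higher signal and a log2 difference of 0.41 ± 0.06 (SE). The remaining one gave 5162, 4679 and 6836 against 6668, 6871 and 6648. Control replicate 3 overlapped the MFAP5 arrays there, and the log2 difference of 0.29 was not called. The call of the brightest probe set was kept under 10 of 16 alternatives. It was lost without control replicate 2 (0.24), MFAP5 replicate 2 (0.27) or MFAP5 replicate 3 (0.23), with arrays centred on their medians (0.13) or on hybridisation controls (0.22), and without an intensity trend.

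PAOX, the peroxisomal oxidase that acts on acetylated polyamines, was measured by 4 probe sets. The brightest gave 302, 343 and 295 in control and 412, 294 and 379 in MFAP5 samples. MFAP5 replicate 2 lay at the level of the controls while the other MFAP5 arrays were above them. The log2 difference was 0.20 (95% interval -0.14 to 0.53), and 0.34 without that array. The other 3 probe sets had differences of 0.02 to 0.43, the groups overlapped in each, and none of the 4 was called.

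SMOX, spermine oxidase, turns spermine directly into spermidine. The signal was 431, 437 and 390 in control and 439, 451 and 354 in MFAP5 samples. Replicate 3 was the lowest in each group and the groups overlapped almost fully. The log2 difference was -0.02 (95% interval -0.31 to 0.26), and it lay between -0.16 and 0.09 over the 16 alternatives. The 2 other SMOX probe sets were below the brightness filter, at signals of 10.5 to 55.0 over the 6 arrays, and were not tested.

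AOC1, a secreted copper-containing diamine oxidase, breaks down putrescine and histamine. Its only probe set gave 148, 164 and 120 in control and 21.1, 29.9 and 18.6 in MFAP5 samples. The control signals were above the brightest Bacillus control on all 3 arrays and the MFAP5 signals on none. The fold is therefore a bound: AOC1 was at least 4.51-fold lower with MFAP5, taking the Bacillus level of each MFAP5 array in place of the AOC1 signal. The measured log2 difference was -2.65 ± 0.29 (SE), and -1.40 with 50 added to each signal. The gene passed the brightness filter by little and through the controls, and it was below the limit of the alternative that kept only probe sets above the 75% quantile of brightness.

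The genes whose centred log2 profile over the 6 arrays was nearest to that of AOC1, by root mean square difference among 12215 other genes, were SCGB1A1 (0.20), MT1X (0.23), MT2A (0.25), GNMT (0.42) and RASL11A (0.45). The AOC1 signals on the MFAP5 arrays were all below the Bacillus level, so these distances and their order are uncertain. The MT1X and MT2A probe sets can share probes with other metallothioneins. SCGB1A1 had signals of 565, 494 and 434 in control and 61.2, 84.1 and 73.6 in MFAP5 samples. The same measure for SAT1, the gene with the largest rise of the 10, gave TCF12 (0.02), CNN3 (0.02), VEZF1 (0.02), GOLGA8N (0.02) and RPS6KA1 (0.03). GOLGA8N and RPS6KA1 were not called, and the GOLGA8N probe set is of a type that can share probes with other genes. TCF12 had signals of 3962, 3726 and 4193 in control and 4564, 4806 and 5096 in MFAP5 samples; having been picked for this pattern, it is given without a test.

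**Figure D3:**
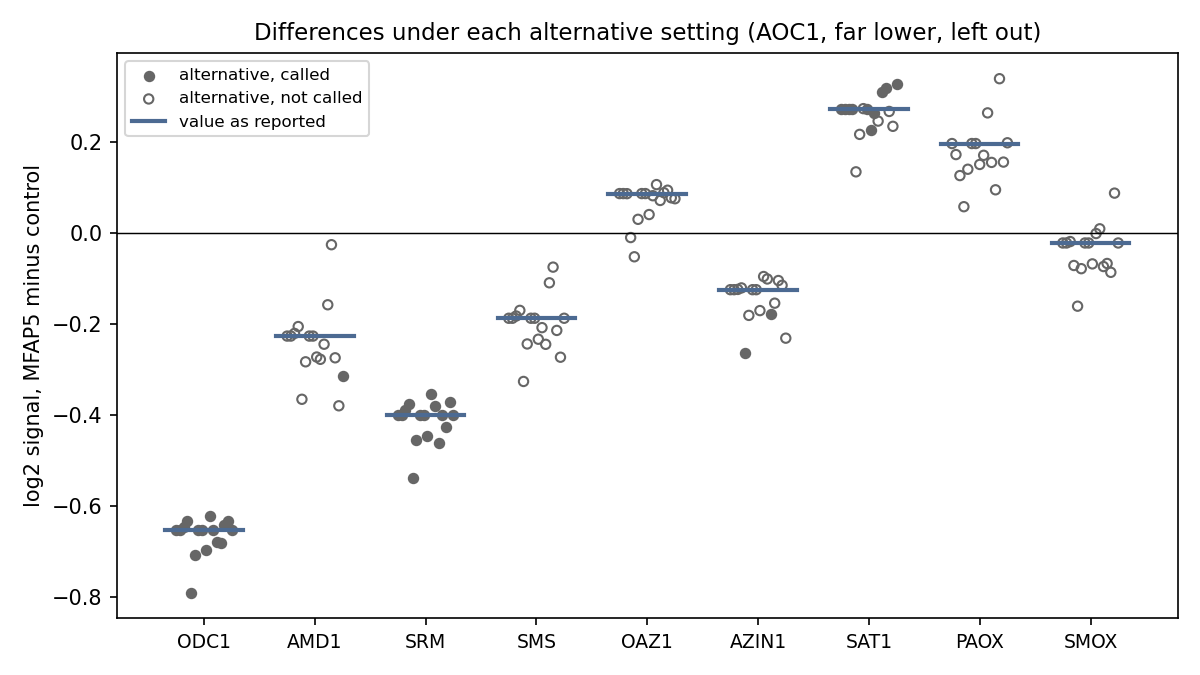
Log2 difference, MFAP5 minus control, of 9 of the 10 genes under each alternative setting; lines are the values as reported, filled points were called and open points were not. ODC1 and SRM are filled throughout, SAT1 is mixed, and SMOX and OAZ1 scatter on both sides of 0.

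Beyond these 10, 46 genes that feed, carry or use polyamines, or are known to regulate ODC1 or SAT1, were looked up in 7 lists. They were listed by role and not by how they moved, but with some earlier results known, those of GNMT, MYC and the 10 genes above among them. Of the 46, 43 were on the array under their symbol and 28 passed the brightness filter. Of these, 4 rose, 8 fell and 16 were not called, beside the 29.9% called of all genes. The 8 include GNMT and MYC. The median log2 difference of all 28 genes tested was -0.09. The counts differ with the settings: centring on array medians gave 0 higher and 14 lower, and leaving out 1 array gave 1 to 4 higher and 4 to 8 lower, with 1 higher and 4 lower without control replicate 1 or without MFAP5 replicate 2 and 2 higher and 5 lower without control replicate 2. Without MFAP5 replicate 3 there were 2 higher and 6 lower.

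**Figure D4:**
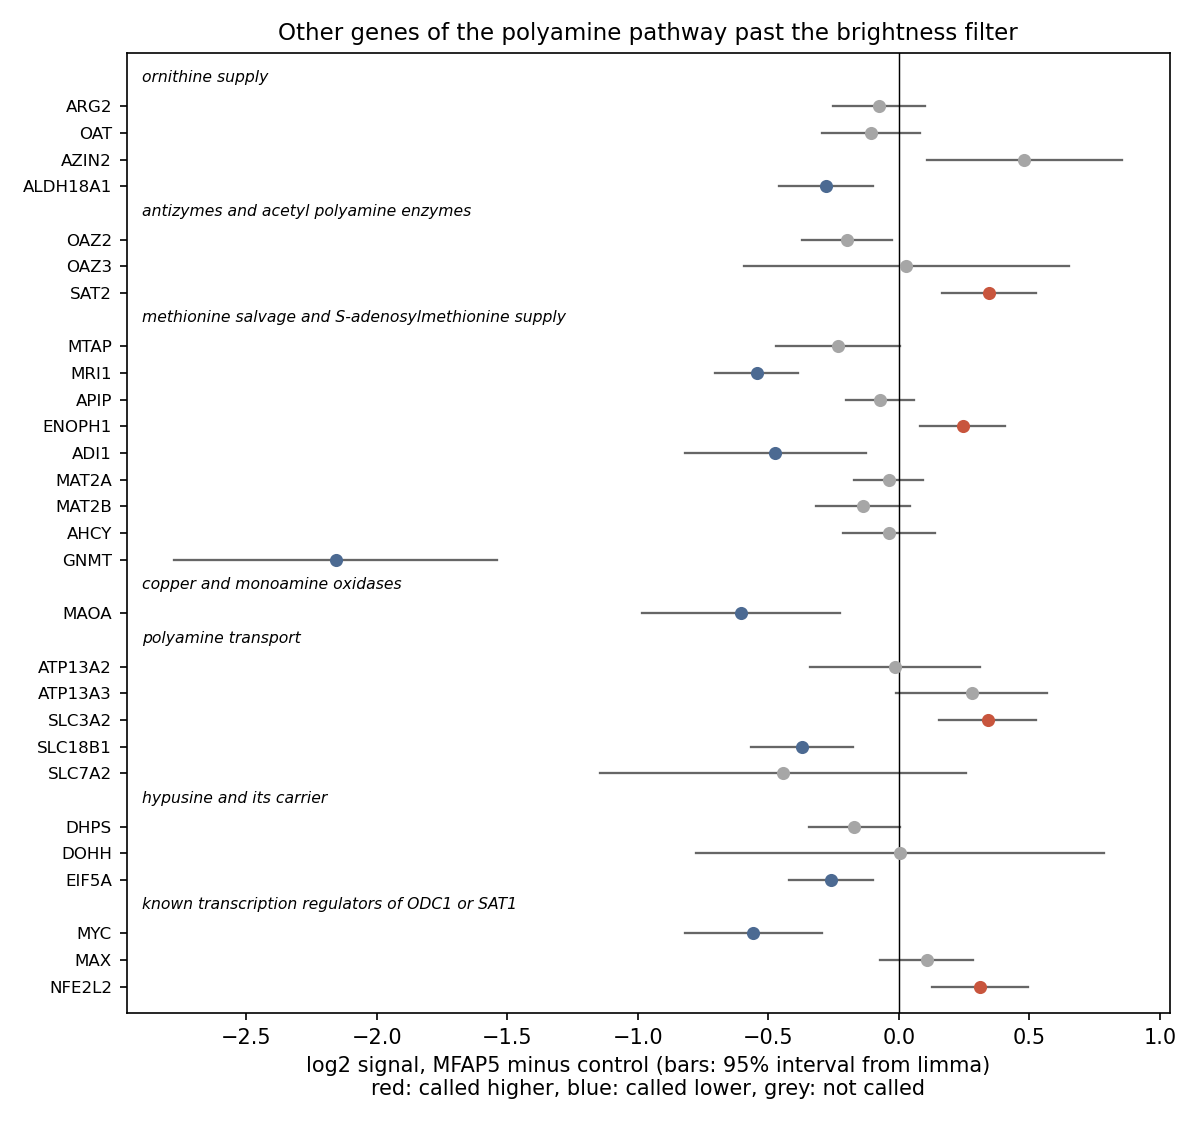
Log2 difference in MAS5 signal, MFAP5 minus control, of the 28 other pathway genes past the brightness filter, in 7 lists, with 95% intervals from limma. The 8 genes called lower are blue, the 4 called higher are red and the 16 not called are grey; GNMT, whose MFAP5 signals were at background level or little above it, is drawn at -2.16 and was at -1.27 with 50 added to each signal.

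In the list for ornithine supply, which also holds the antizyme inhibitor AZIN2, 1 of 4 genes tested fell and none was called higher. ALDH18A1, which makes the precursor from which ornithine and proline are formed, went from 2592 ± 196 to 2137 ± 138 (SD, n = 3 each), a log2 difference of -0.28 (limma adjusted p = 0.0305, and 0.0058 to 0.138 over the alternatives). Its call was kept under 9 of 16 alternatives. The arginase ARG2 (-0.08), the aminotransferase OAT (-0.11) and the second antizyme inhibitor AZIN2 (0.48) were not called. The AZIN2 signals did not overlap between the groups, and it was called without MFAP5 replicate 2 (0.63). ARG1, AGMAT and OTC were too dim to be tested.

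Of 3 genes for other antizymes and acetylation, SAT2, a relative of SAT1 that acts mainly on other substrates, rose from 1385 ± 33 to 1765 ± 146 (n = 3 each), a log2 difference of 0.35 (limma adjusted p = 0.0112, and 0.00585 to 0.236 over the alternatives). It kept its call under 13 of 16 alternatives. The antizymes OAZ2 (-0.20) and OAZ3 (0.03) were not called. As the mean of its tested probe sets the OAZ2 difference was 0.003, while OAZ2 was called lower under 4 of 16 alternatives. HDAC10, which removes the acetyl group from acetylspermidine, was too dim to be tested.

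Methionine salvage recovers the methionine spent on aminopropyl groups, from the by-product methylthioadenosine. Of 9 genes tested for it and for the supply of S-adenosylmethionine, 3 fell, 1 rose and 5 were not called. MRI1, an isomerase of the salvage route, went from 2917 ± 171 to 1999.5 ± 77.3 (n = 3 each), a log2 difference of -0.54 (limma adjusted p = 0.000475), and kept its call under all 16 alternatives. ADI1, the dioxygenase of the route, fell by 0.47 on the log2 scale with overlapping groups, and ENOPH1, an enzyme between these steps, rose by 0.24 (limma adjusted p = 0.0489 and 0.0336). The ADI1 call was kept under 10 and the ENOPH1 call under 7 of 16 alternatives. MTAP, which opens the salvage route, was not called (-0.23), nor were MAT2A and MAT2B, which make S-adenosylmethionine (-0.04 and -0.14). As the mean of its tested probe sets the MTAP difference was 0.009, while the brightest was called lower under 2 of 16 alternatives. The same means for MAT2A and MAT2B were -0.19 and -0.36 and were not called. Each of these 2 genes was called lower by its brightest probe set under 1 of 16 alternatives. GNMT, which uses S-adenosylmethionine to methylate glycine, had signals of 170, 137 and 163 in control and 24.7, 42.0 and 41.3 in MFAP5 samples. All MFAP5 values were far below the controls, and 1 of the 3 was under the Bacillus level. On the log2 scale the difference was -2.16, and -1.27 with 50 added to each signal. GNMT passed the brightness filter through the controls and its fall was known when it was listed, so no p is given.

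Of 5 transport genes tested, SLC3A2, the heavy chain of amino acid exchangers that has also been linked to polyamine export, rose from 1060 ± 87 to 1339 ± 23 (n = 3 each, limma adjusted p = 0.0138), with a log2 difference of 0.34. SLC18B1, a vesicular polyamine transporter, fell from 1398 ± 78 to 1083 ± 90 (n = 3 each), with a log2 difference of -0.37 (limma adjusted p = 0.0123). They kept their calls under 12 and 14 of 16 alternatives. The lysosomal exporter ATP13A2 (-0.01), its relative ATP13A3 (0.28) and the cationic amino acid carrier SLC7A2 (-0.44) were not called.

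Spermidine is also the source of hypusine, an amino acid formed in the translation factor eIF5A alone. EIF5A mRNA went from 18642 ± 1421 to 15565 ± 803 (SD, n = 3 each), a log2 difference of -0.26 (limma adjusted p = 0.0252, and 0.000834 to 0.108 over the alternatives). Its call was kept under 9 of 16 alternatives, and its probe set is of a type that can match more than 1 transcript. The same type measured other genes here, among them AOC1, SAT1, MYC, ADI1, ENOPH1 and SLC3A2, and it includes the AMD1 probe set that was called. The enzymes that form hypusine, DHPS (-0.17) and DOHH (0.00), were not called. DHPS was called lower under 2 of 16 alternatives, 1 of them the mean of its tested probe sets (-0.24). Among oxidases, MAOA, a mitochondrial monoamine oxidase, was the only 1 of 5 bright enough to be tested. It fell from 378 ± 36 to 251 ± 51 (n = 3 each), a log2 difference of -0.60 (limma adjusted p = 0.027). The call was kept under 11 of 15 alternatives.

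MYC encodes a transcription factor known to bind the letters CACGTG. Binding to the stretches shown above was not measured. The mean MYC signal was 15665 ± 2846 in control and 10542 ± 783 in MFAP5 samples (SD, n = 3 each). On the log2 scale MYC differed by -0.56, and by -0.70 to -0.44 over the 16 alternatives. Since this difference was known when MYC was listed, it is a description and no p is given. Its partner MAX was not called (0.11). As the mean of its tested probe sets the MAX difference was -0.11, also not called. NFE2L2, which encodes NRF2, a regulator of the stress response reported to act on SAT1, rose from 3361 ± 322 to 4158 ± 271 (n = 3 each, limma adjusted p = 0.0211), a call kept under 9 of 16 alternatives. Whether these factors had a part in the values of ODC1, SRM or SAT1 was not tested.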

How the data were processed

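The values deposited by the authors are linear intensities, 1 MAS5 signal for each probe set on each array; per the submitters' processing notes the tool was MAS5, whose version is not given in the sources used here. The trimmed mean (2% left out at each end) was 500.07 on every array, and no further scaling was applied. Groups and replicate numbers came from the sample titles. Names came from the platform annotation, which lists 1 symbol for 41091 probe sets, several for 1801 and none for 11721. Signals were taken to log2, and probe sets with a mean log2 value below the median (a signal of 53.7) were left out. The comparison used limma 3.58.1 under R 4.3.3 (eBayes with an intensity trend, two-sided, Benjamini-Hochberg over 27307 probe sets). The fit was tested on simulated data. A gene was represented by its brightest probe set (mean log2 over the 6 arrays). The rule for names took all 10 genes, up to 4 called genes a list with the largest change, and the 5 nearest genes of the member with the largest rise and fall; other list genes were named after their values were seen. The members and lists were chosen with earlier results of these data known. Same-numbered samples deviated from their group means with correlations of 0.09, -0.01 and 0.17. Control samples 1, 2 and 3 against MFAP5 samples of other numbers gave -0.07 to -0.02, -0.10 to 0.10 and -0.18 to 0.03. These values do not settle whether the numbers pair the samples, and the main fit left pairing out. Replicates are single samples of 1 line. The p-values set each difference against the spread between these samples, which limma moderates with that of the other probe sets tested. They cover no spread between cell lines. Alternatives changed the filter, an added signal, the scaling, the variance model, the arrays kept and the probe sets used.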

Additional observations from a re-analysis of the deposited data

How the results depend on the processing

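With 3 arrays a group, precision is limited by their number, and AOC1 cannot be followed below the Bacillus level. The count of probe sets called, 3679 higher and 3209 lower, was 2422 higher above the 75% quantile of brightness, where fewer were tested, 2302 and 5975 with centring on array medians, 1920 and 2011 with centring on hybridisation controls, and 2532 to 3557 higher and 2118 to 3117 lower with 1 array left out. With the replicate number as a block it was 4214 and 3774, and the block changed no call among the 10 genes; it added OAZ2 and ATP13A3 to those called in the other lists. Of the 10 genes, the number called higher (SAT1 alone) was 0 with centring on array medians, on hybridisation controls or without an intensity trend, and 0 to 1 with 1 array left out. The number called lower was 2 to 4 over all alternatives. Of the other pathway genes, 4 higher and 8 lower, 5 were lower with no filter, 0 higher and 14 lower with centring on array medians, 0 and 5 with centring on hybridisation controls, 2 and 4 without an intensity trend, and 1 to 4 higher and 4 to 8 lower with 1 array left out. AZIN1 was called lower with centring on array medians (-0.26). Centring on the median of the probe sets tested, chosen after seeing the data, changed no call among the 10 genes. The causes of these changes were not tested unless stated.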
